A study of Rattus norvegicus with 14 samples.

Results

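The genes examined were fixed by name for their place in tryptophan use: Ido1, Tdo2, Kynu, Kmo and Haao of the kynurenine route, and Tph1, Ddc, Slc6a4, Maoa and Maob of the serotonin route, 10 of the 26319 genes in the count table. All 10 were found by symbol and all 10 passed the filter on low counts. The RNA came from colon of male Wistar rats, sequenced as total RNA depleted of ribosomal RNA on a SOLiD instrument. Colitis had been provoked with 2,4,6-trinitrobenzene sulphonic acid (TNBS), a hapten that was instilled into the colon in 0.25 ml under ether, and tissue was collected 72 h later. Inflamed (n = 6) and uninflamed (n = 6) regions were taken from the same 6 TNBS-treated rats, the uninflamed piece at a distance from the lesion, and the 2 control rats, which the labels call vehicle-treated and the study's text untreated, gave 1 piece each from an arbitrary place in the colon (n = 2). Inflamed minus uninflamed regions is written I-UI, inflamed regions minus control I-C, and uninflamed regions minus control UI-C. Both regions came from the same rats, but fold changes and p-values in I-UI are from a fit without an animal term unless the animal block is named. Both comparisons with controls rest on 2 rats.

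Tryptophan is an essential amino acid with several fates in the gut. Most of what is broken down enters the kynurenine route, opened by the dioxygenases IDO1 and TDO2 and leading by way of KMO, KYNU and HAAO to quinolinate and NAD; IDO1 is known as an enzyme that interferon gamma switches on in myeloid and other cells. A smaller share is hydroxylated by TPH1 in the enterochromaffin cells of the epithelium and decarboxylated by DDC to serotonin, which acts on nerves, muscle and immune cells, is cleared by the transporter SLC6A4 (SERT) and is oxidised by the monoamine oxidases MAOA and MAOB.

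The libraries held 6734968 to 13792657 reads in inflamed, 7813797 to 13234808 in uninflamed and 12013023 to 12041314 in control samples. Levels are given as CPM (read counts scaled to a common library size) after TMM scaling, which corrects for the make-up of each library, and a count of 3 reads was worth 0.182 to 0.478 CPM. All 12 epithelial markers were detected in each group, and all 12 fell in I-UI (7 without animal 218, 219 or 222 and 6 without animal 223). Their summed level was 175.6 to 4327 CPM in inflamed, 4058 to 7677 in uninflamed and 4078 to 8033 in control libraries. The inflamed library of animal 221 stood apart with the highest of the inflamed sums, inside the range of the uninflamed ones, while the other inflamed libraries reached at most 1344 CPM. All 8 neutrophil markers rose, with sums of 358.2 to 2071 CPM in inflamed, 12.2 to 29.0 in uninflamed and 14.2 to 18.4 in control libraries. These were bulk samples, in which fewer cells of a type and less RNA per cell cannot be told apart.

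In I-UI, 1 of the 10 genes was called, that is, passed a Benjamini-Hochberg adjusted p of 0.05 in the quasi-likelihood test of edgeR together with a change of at least 2-fold. It was Tph1, which fell. Over all 18678 genes tested, 13.1% were called, 6.15% as higher and 6.95% as lower, so that 1 of 10 was near the background. On the adjusted p alone, 3 of the 10 passed (Tph1, Slc6a4 and Maoa, all of the serotonin route and all lower), against 24.4% of all genes, and 5 of the 10 had an unadjusted p under 0.05, against 37% of all genes. The median log2 fold change was -0.64 over the 5 serotonin genes and 0.20 over the 5 kynurenine genes, beside 0.04 over all genes.

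**Figure D1:**
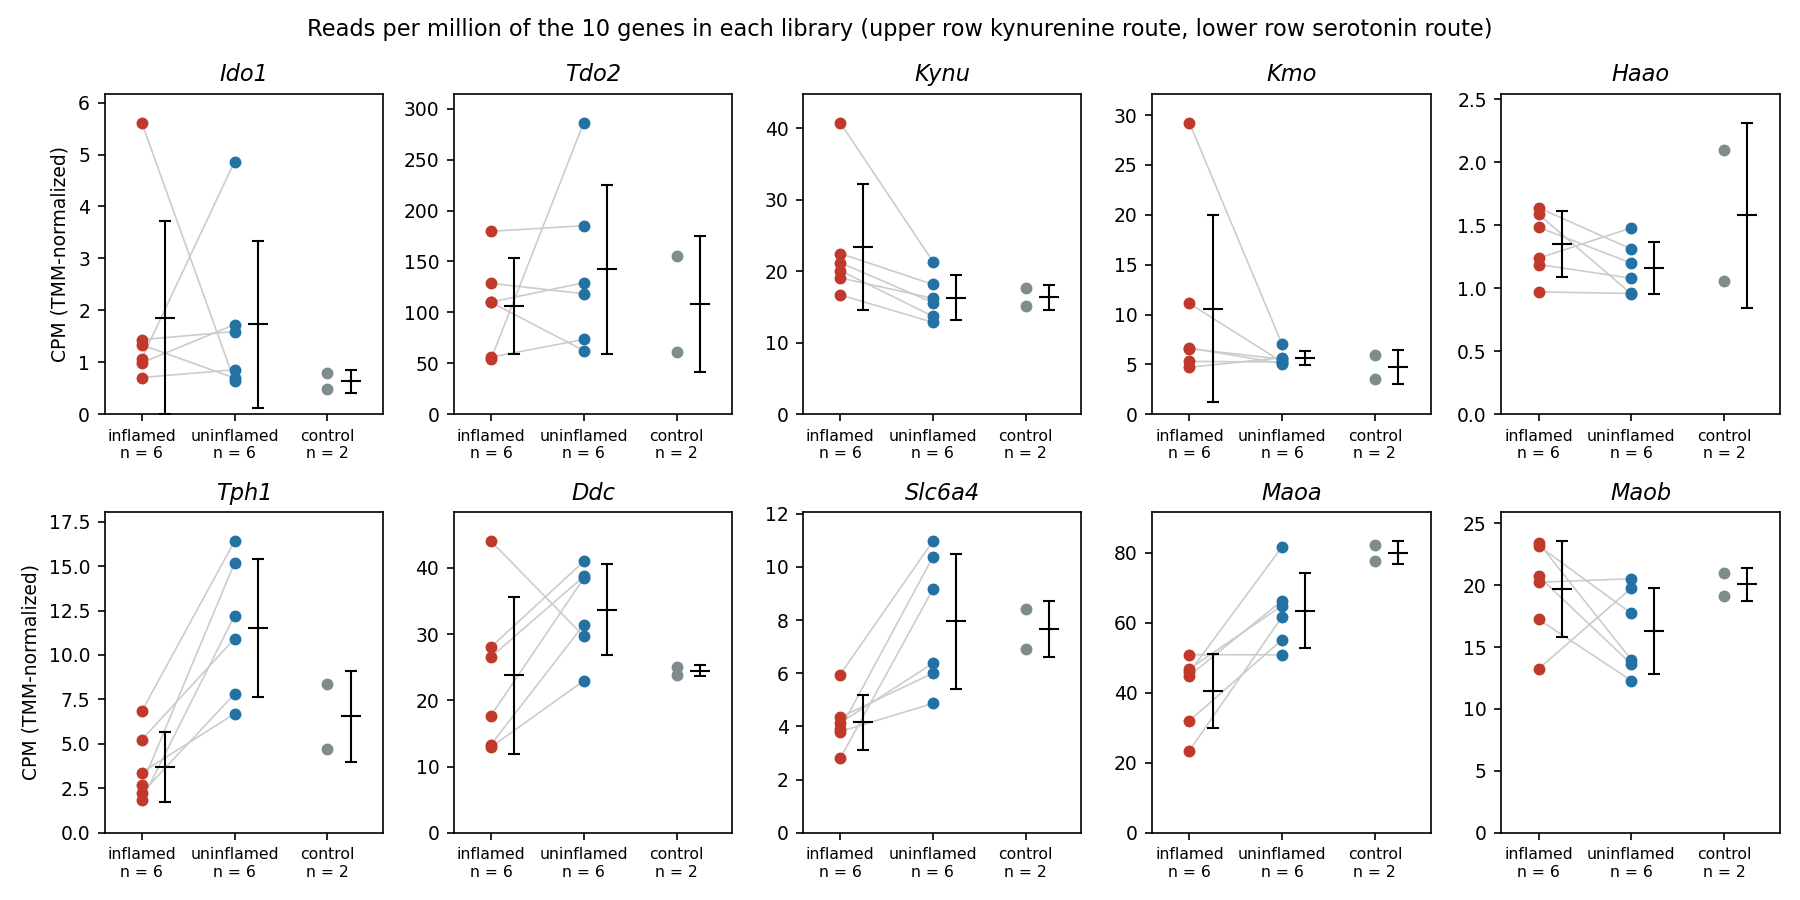
TMM-normalized CPM (y axis, linear from 0) of each gene in inflamed (red), uninflamed (blue) and control (grey) libraries. Each point is 1 library, grey lines join both regions of 1 rat, and black bars give mean ± SD. All 6 lines of Tph1 and Slc6a4 climb towards the uninflamed side, and a single inflamed library carries the top value of Ido1, Kynu and Kmo.

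Tph1 encodes the tryptophan hydroxylase of enterochromaffin cells, the rate-limiting enzyme of serotonin synthesis outside the brain. Its level was 1.82, 2.23, 2.69, 3.39, 5.23 and 6.84 CPM in inflamed regions (18 to 100 reads), against 6.69, 7.81, 10.9, 12.2, 15.2 and 16.4 CPM in uninflamed regions (42 to 177 reads) and 4.73 and 8.37 CPM in control colon. The inflamed library with 6.84 CPM was that of animal 221, the library with the most epithelial marker RNA, and it alone reached into the uninflamed range. The lower control value lay in the inflamed range and the higher one in the uninflamed range. Tph1 averaged 3.70 ± 1.95 CPM in inflamed and 11.5 ± 3.88 CPM in uninflamed regions (SD, n = 6 each), a log2 fold change of -1.64 ± 0.33 (SE, adjusted p = 0.00254), which is 3.12-fold lower. It was lower in the inflamed region of 6 of 6 animals, by log2 differences between -2.63 and -0.94, as were 13.3% of all genes tested. Across the alternative analyses the log2 fold change lay between -1.83 and -1.42 with adjusted p between 2.23e-05 and 0.0190, and leaving out animal 221 gave -1.83 (adjusted p = 0.000847).

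The sequence upstream of Tph1 is shown because this was the 1 gene called. It is taken from the promoter table of RefSeq for the assembly GRCr8, a later build than the one the reads were mapped to, and covers chr1:106314629-106314878 on the minus strand, the 250 bases before the annotated start, printed 5′ to 3′. Capitals would mark matches to 3 motifs searched on both strands over the 300 bases of each table entry, and there are none.
Tph1: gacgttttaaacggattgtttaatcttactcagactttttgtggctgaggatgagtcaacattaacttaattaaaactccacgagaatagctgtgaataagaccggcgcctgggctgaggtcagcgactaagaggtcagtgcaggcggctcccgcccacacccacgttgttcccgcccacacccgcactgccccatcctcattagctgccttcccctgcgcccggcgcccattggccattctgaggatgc
The motifs were GAAANNGAA (the interferon-stimulated response element, held by 9.71% of all 33469 promoters), TTCNNNGAA (the gamma-activated site, 8.87%) and GCGTG (the core of the xenobiotic response element, 29.7%). Promoters were matched for 8 of the 10 genes, Ddc with several entries. GAAANNGAA occurred in 1 of them (Kmo), TTCNNNGAA in 1 (an entry of Ddc) and GCGTG in 1 (Maob). Ido1 and Slc6a4 were not matched. A match is a run of letters and not a binding site.

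Slc6a4, the serotonin transporter that ends the signal by uptake into cells, had the next lowest adjusted p. Its level was 2.79, 3.81, 3.89, 4.13, 4.34 and 5.95 CPM in inflamed regions (32 to 87 reads), against 4.86, 6.00, 6.37, 9.16, 10.4 and 10.97 CPM in uninflamed regions (40 to 121 reads) and 6.92 and 8.40 CPM in control colon. As for Tph1, the single inflamed value that overlapped the uninflamed ones was that of animal 221, and both controls lay above every inflamed library. Slc6a4 was lower in inflamed regions in 6 of 6 animals, with a log2 fold change of -0.94 ± 0.23 (SE, adjusted p = 0.00874), and fell short of the 2-fold threshold. The value moved across that threshold with the animals included: it was -1.03 without animal 219 (adjusted p = 0.0116) and -1.02 without animal 220 (adjusted p = 0.0157), but -0.80 without animal 223 (adjusted p = 0.0509).

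Maoa and Maob encode the paired oxidases that degrade serotonin and other amines. Maoa was measured at 23.4, 32.0, 44.8, 45.8, 46.8 and 50.8 CPM in inflamed regions, against 50.8, 55.1, 61.7, 64.9, 66.3 and 81.7 CPM in uninflamed regions and 77.7 and 82.3 CPM in control colon. The regions met only at the value of 50.8, which both regions of animal 220 shared, and the controls lay above every inflamed library. Its log2 fold change was -0.64 ± 0.19 (SE, adjusted p = 0.0200), lower in 5 of 6 animals, and it was not called. Without animal 219 the adjusted p was 0.0525, without animal 222 it was 0.0539 and without animal 223 it was 0.0689. Maob ranged from 13.2 to 23.4 CPM (median 20.5) in inflamed, from 12.3 to 20.5 CPM (median 15.8) in uninflamed and from 19.1 to 21.0 CPM in control libraries. The 3 ranges overlapped, with a log2 fold change of 0.27 ± 0.18 (SE, adjusted p = 0.277) and a higher inflamed value in 4 of 6 animals.

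Ddc, the decarboxylase of the last synthetic step, which is also known in other epithelial and neuronal cells, spread widely. Its level was 12.9, 13.3, 17.7, 26.5, 28.0 and 44.0 CPM in inflamed regions, against 22.9, 29.7, 31.4, 38.4, 38.7 and 41.0 CPM in uninflamed regions and 23.9 and 25.1 CPM in control colon. The inflamed library of animal 220 had the highest Ddc level of all 14 libraries and at the same time the lowest epithelial marker sum, 175.6 CPM. The log2 fold change was -0.51 ± 0.27 (SE, adjusted p = 0.186), with 5 of 6 animals lower.

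**Figure D2:**
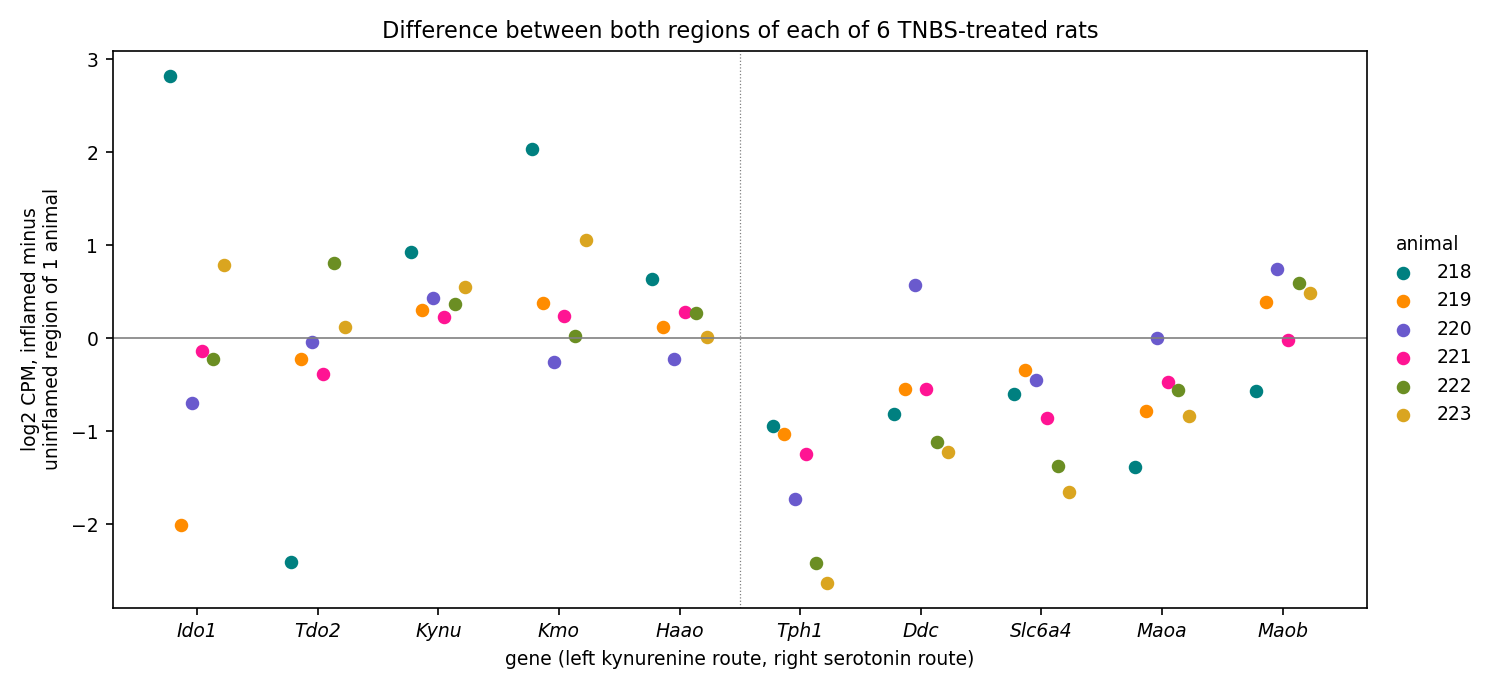
Difference in log2 CPM between the inflamed and the uninflamed region of each rat (y axis), for the kynurenine genes on the left and the serotonin genes on the right, with 1 colour for each animal. Tph1 and Slc6a4 lie below 0 and Kynu above 0 in all 6 animals, whereas Ido1 spans -2.01 to 2.82.

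On the kynurenine side none of the 5 genes was called in I-UI by the quasi-likelihood test of edgeR. Of the 5, 2 (Kynu and Kmo) had an unadjusted p under 0.05, near the share of 37% over all genes. No kynurenine gene was called by exactTest, DESeq2 or limma-voom either. Ido1, the inducible first enzyme of the route, was scarce, at 4 to 53 reads a library. It was measured at 0.707, 0.992, 1.07, 1.34, 1.44 and 5.61 CPM in inflamed regions, against 0.637, 0.698, 0.857, 1.59, 1.73 and 4.86 CPM in uninflamed regions and 0.481 and 0.788 CPM in control colon. One region of each kind stood far above the rest, the inflamed one of animal 218 and the uninflamed one of animal 219, and the groups overlapped throughout. The log2 fold change was 0.08 ± 0.57 (SE, adjusted p = 0.933), with 2 animals higher and 4 lower. The 95% confidence interval, -1.14 to 1.31, includes changes of more than 2-fold in either direction, and without animal 218 the value was -0.78 (adjusted p = 0.239).

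Tdo2, the other dioxygenase and best known from liver, ranged from 54.0 to 179.7 CPM (median 110.1) in inflamed, from 62.6 to 286.3 CPM (median 123.8) in uninflamed and from 60.96 to 155.8 CPM in control libraries. Its spread within each group exceeded the difference between the groups, with a log2 fold change of -0.42 ± 0.40 (SE, adjusted p = 0.468). The top value was the uninflamed region of animal 218, whose inflamed region held the lowest, and without this animal the log2 fold change was 0.04 (adjusted p = 0.953).

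Kynu encodes kynureninase, which cleaves kynurenine and its hydroxylated form. Its level was 16.7, 19.1, 20.1, 21.2, 22.5 and 40.8 CPM in inflamed regions, against 12.9, 13.7, 15.6, 16.2, 18.2 and 21.4 CPM in uninflamed regions and 15.1 and 17.6 CPM in control colon. It was higher in the inflamed region of 6 of 6 animals, which was the case for 10.8% of all genes tested, although the group ranges overlapped. The log2 fold change was 0.52 ± 0.21 (SE, adjusted p = 0.0824). In the fit with the animal as a block it was 0.47 with an adjusted p of 0.0453, below 2-fold in both fits.

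Kmo, the monooxygenase that commits kynurenine to the branch towards quinolinate and is known from microglia and macrophages, was measured at 4.71, 5.30, 6.56, 6.66, 11.1 and 29.2 CPM in inflamed regions, against 5.08, 5.23, 5.23, 5.53, 5.67 and 7.01 CPM in uninflamed regions and 3.56 and 5.91 CPM in control colon. The inflamed libraries of animals 218 and 223 lay above the uninflamed range and the other inflamed libraries lay within or below it. The log2 fold change was 0.91 ± 0.39 (SE, adjusted p = 0.106), with 5 of 6 animals higher, and without animal 218 it was 0.36 (adjusted p = 0.256). Haao, which makes the precursor of quinolinate, was near the limit of detection at 6 to 24 reads a library. Its range was 0.972 to 1.64 CPM (median 1.36) in inflamed, 0.956 to 1.48 CPM (median 1.14) in uninflamed and 1.06 to 2.10 CPM in control libraries, with a log2 fold change of 0.20 ± 0.25 (SE, adjusted p = 0.582). It was higher in the inflamed region of 5 of 6 animals. For counts short of 6 of 6 animals, the share of all genes was not computed.

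The region upstream of Kmo is shown because it was the only one of the 8 matched genes with GAAANNGAA. It covers chr13:90089271-90089520 on the plus strand of GRCr8 (RefSeq), 250 bases before the annotated start, and capitals mark the 2 matches, GAAAACGAA and GAAAAAGAA.
Kmo: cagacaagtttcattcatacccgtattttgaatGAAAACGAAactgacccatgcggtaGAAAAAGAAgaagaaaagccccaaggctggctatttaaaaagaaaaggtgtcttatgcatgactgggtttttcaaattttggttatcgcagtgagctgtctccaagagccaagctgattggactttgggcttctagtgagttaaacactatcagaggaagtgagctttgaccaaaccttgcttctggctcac
Of the 14 interferon gamma response genes followed beside the route, 11 had a promoter in the table. Of those 11, 3 held GAAANNGAA, 5 TTCNNNGAA and 5 GCGTG, beside 9.71%, 8.87% and 29.7% of all promoters. The Kmo promoter held neither TTCNNNGAA nor GCGTG.

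The inflamed library of animal 218 carried the highest Ido1, Kynu and Kmo levels and the lowest Maoa, Maob, Ddc and Tdo2 levels of the 6 inflamed libraries. In that library the 9 T and B cell markers summed to 372.5 CPM, against 25.2 to 75.9 CPM in the other inflamed libraries, 24.4 to 112.8 CPM in uninflamed and 21.0 to 373.2 CPM in control libraries, and the leukocyte antigen Ptprc stood at 802.4 CPM, the highest of all libraries. Of the 8 T and B cell markers tested, 0 were called in I-UI by the quasi-likelihood test of edgeR, where 3 had an unadjusted p under 0.05, 0 by limma-voom, and 2 each by exactTest and DESeq2, and 5 were called without animal 220. Whether these cells had a part in the levels of Ido1, Kynu and Kmo was not tested. Counted by animal, all 5 serotonin genes were lower in the inflamed region of animals 218 and 221, 4 of 5 in animals 219, 222 and 223, and 2 of 5 in animal 220. In animal 220 the difference of Maoa was only 0.001 on the log2 scale. Of the 5 kynurenine genes, 5 were higher in animal 223, 4 in animals 218 and 222, 3 in animals 219 and 221, and 1 in animal 220. The share of all genes lower or higher in each animal was not computed, so these counts have no background beside them.

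**Figure D3:**
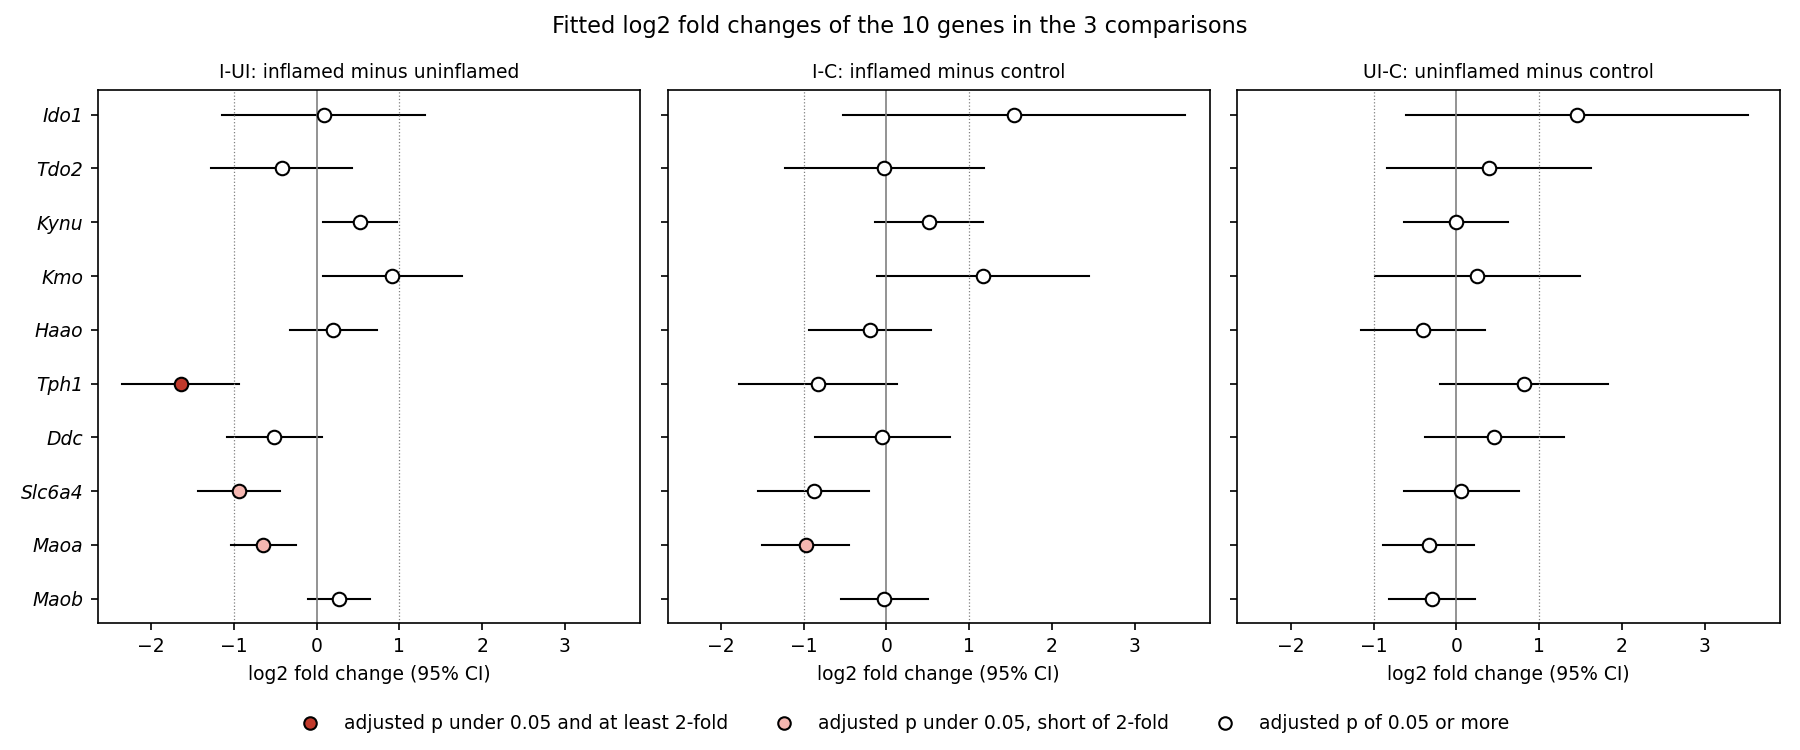
Log2 fold changes of the 10 genes (points) with 95% confidence intervals (lines) in I-UI, I-C and UI-C, from 1 edgeR fit of all 14 libraries. Dotted lines mark 2-fold. Tph1 in I-UI, at -1.64, is the only filled red point, Slc6a4 and Maoa in I-UI and Maoa in I-C are pale, and the intervals against the 2 controls are the wider ones.

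Markers of the cells that could carry these genes were read beside them. Of the 10 enteroendocrine markers tested, 2 fell (Chga at -1.93 and Chgb at -2.32, both granins of the secretory granule) and 1 rose (Tac1 at 2.07, the substance P precursor, which is also made by enteric nerves). The summed level of the enteroendocrine list was 42.8 to 102.7 CPM in inflamed, 73.5 to 107.7 CPM in uninflamed and 69.8 to 78.8 CPM in control libraries. Mast cells also make serotonin in rodents. Of 7 mast cell markers tested, 1 fell (Fcer1a, log2 fold change -1.74, adjusted p = 0.0226, and -0.93 with adjusted p = 0.0990 without animal 219), and the list summed to 39.4 to 60.9 CPM in inflamed, 55.9 to 86.0 CPM in uninflamed and 60.4 to 60.9 CPM in control libraries. Of the 12 monocyte, macrophage and dendritic cell markers 4 rose and none fell. Over all genes tested, 6.15% were called as higher and 6.95% as lower. The part of these cells in the levels of the 10 genes was not tested.

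The genes were also set against a marker in the same library. The log2 ratio of Tph1 to Chga, the granin of enterochromaffin cells, was 0.67 ± 0.69 in inflamed, 0.53 ± 0.20 in uninflamed and 0.40 ± 0.01 in control libraries (SD, n = 6, 6 and 2), and within animals the inflamed minus uninflamed ratio averaged 0.14 ± 0.83, 3 higher and 3 lower. The fold changes behind it were -1.64 for Tph1 and -1.93 for Chga. The log2 ratio of Ddc to Chga was 3.30 ± 0.36 in inflamed, 2.11 ± 0.38 in uninflamed and 2.33 ± 0.51 in control libraries, higher in the inflamed region of 6 of 6 animals by 1.19 ± 0.23 (SD). The ranges of inflamed (2.89 to 3.81) and uninflamed regions (1.57 to 2.64) did not overlap. Neither did those of Chga alone, at log2 CPM of 0.64 to 1.68 in inflamed (13 to 44 reads) and 2.26 to 3.79 in uninflamed regions. A gene that changed little would thus also be higher against Chga, and the share of all genes that are was not computed.

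Against Epcam, an adhesion protein of all epithelial cells that fell by 2.22 on the log2 scale in I-UI (adjusted p = 0.0114), all 3 serotonin genes examined were relatively higher in inflamed regions. The within-animal difference in log2 ratio averaged 2.30 ± 1.88 for Ddc (6 of 6 animals higher), 2.24 ± 1.81 for Maoa (6 of 6) and 2.03 ± 1.62 for Slc6a4 (5 of 6). The animal that was not higher for Slc6a4 was 221, at -0.14. Against Ptprc, the pan-leukocyte phosphatase CD45, which rose by 2.03 on the log2 scale (adjusted p = 0.00801), the kynurenine genes were relatively lower. The difference averaged -1.89 ± 1.15 for Ido1 (6 of 6 animals lower), -1.40 ± 0.77 for Kmo (6 of 6) and -1.50 ± 1.08 for Kynu (5 of 6, the exception at 0.45). That exception was animal 220, where Ptprc itself was at 208.8 CPM in the inflamed and 210.9 CPM in the uninflamed region. Epcam alone was at 18.8 to 382.7 CPM in inflamed and 543.0 to 686.3 CPM in uninflamed regions. A gene that changed little would thus also be higher against Epcam, and in most animals lower against Ptprc. The shares of all genes that are were not computed. These ratios are descriptions without a test, and the markers were chosen with their own change known.

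**Figure D4:**
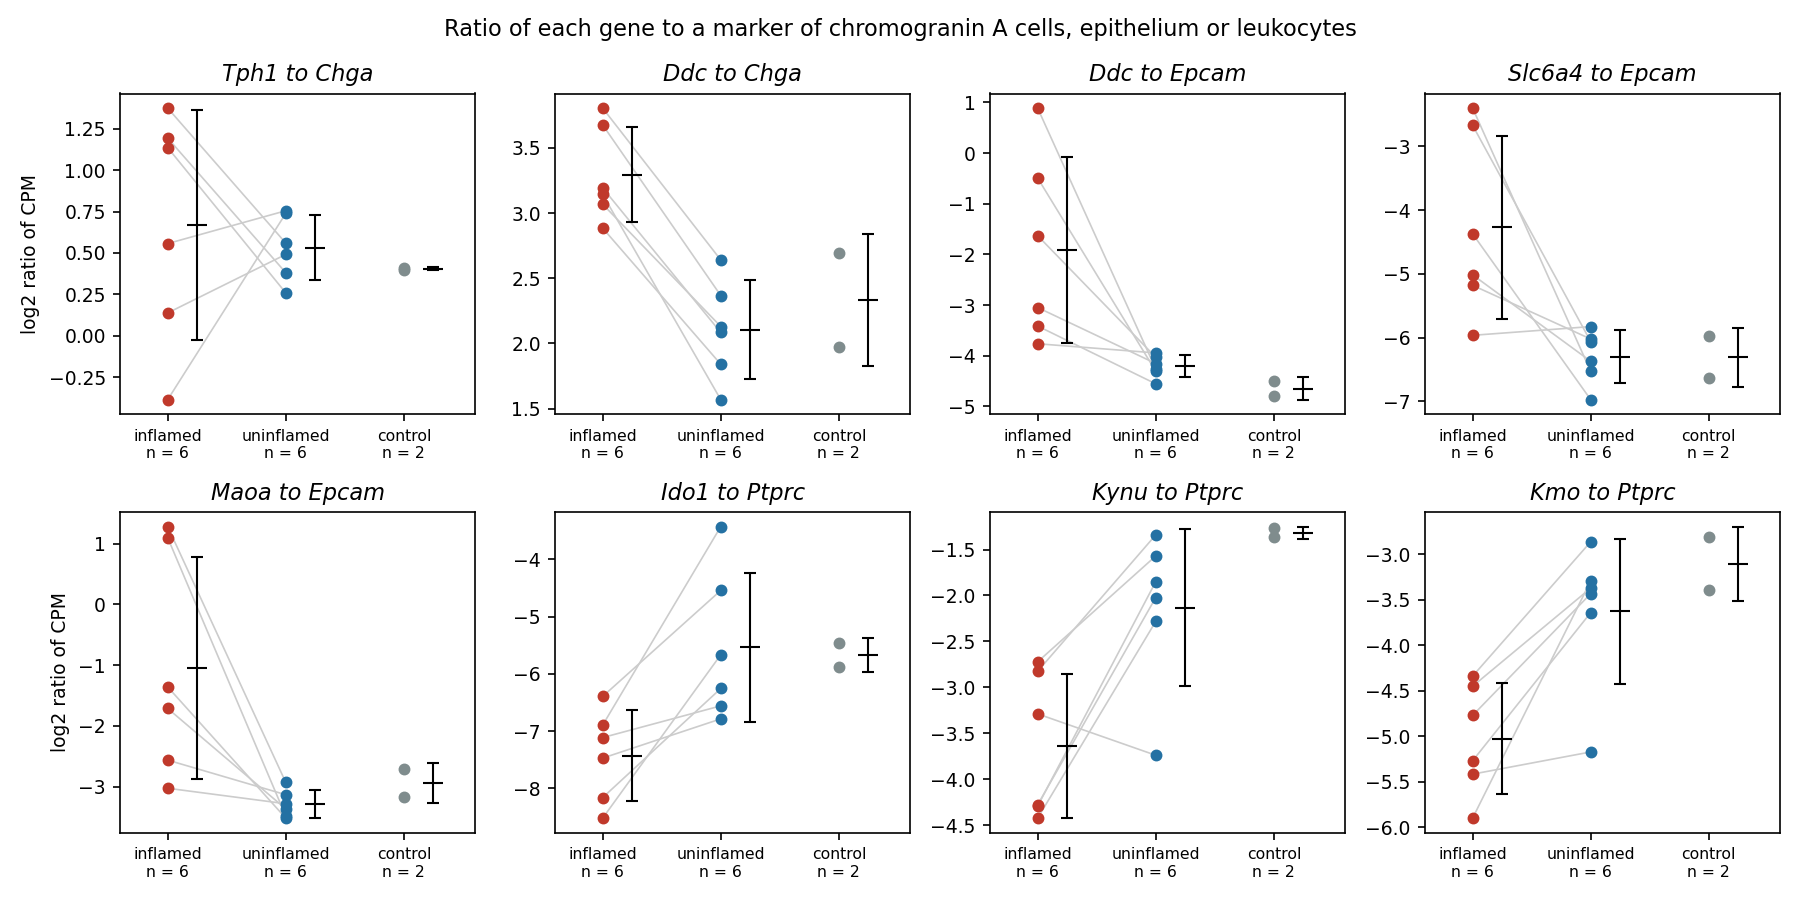
Log2 ratio of the CPM of each gene to that of a marker (y axis, not from 0) in inflamed (red), uninflamed (blue) and control (grey) libraries. Points are libraries, grey lines join both regions of 1 rat, and bars give mean ± SD. The inflamed and uninflamed points of Ddc to Chga are separate, those of Tph1 to Chga are mixed, and the ratios of Ido1 and Kmo to Ptprc are lower in the inflamed region of every animal. The levels of Chga alone (not drawn) are separate too, and in I-UI Epcam alone fell and Ptprc alone rose.

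The genes whose profile over the 14 libraries was most like that of Tph1 were Trim2, Ttc38 and Hadh. Their centred log2 CPM differed from those of Tph1 by a root mean square of 0.336, 0.336 and 0.338, out of 13020 candidates, beside an SD of 0.94 for Tph1 itself.

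Around the members, the other genes of tryptophan use were followed in 8 lists. The 9 other kynurenine route genes gave no call in I-UI with the quasi-likelihood test of edgeR, exactTest, DESeq2 or limma-voom, and 3 had an unadjusted p under 0.05. Kyat3 and Kyat1, aminotransferases that turn kynurenine into kynurenate and are listed under the older symbols Ccbl2 and Ccbl1, had log2 fold changes of -0.82 (adjusted p = 0.0136) and -0.80 (adjusted p = 0.0266), and without animal 221 Kyat1 was called (adjusted p = 0.00463). Qprt, which carries quinolinate into NAD synthesis, stood at 0.64 (adjusted p = 0.0677). Of 7 NAD synthesis genes tested 1 was called. Nadsyn1, the synthetase of the final amidation, fell to 8.06 ± 3.10 CPM in inflamed regions, against 18.4 ± 2.82 CPM in uninflamed regions (SD, n = 6 each; log2 fold change -1.18 ± 0.22 SE, adjusted p = 0.00158). Nampt, the entry enzyme of the nicotinamide salvage path, was at 0.70 (adjusted p = 0.0201) and Naprt, that of nicotinate, at -0.67 (adjusted p = 0.0327).

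Tetrahydrobiopterin is the cofactor that tryptophan hydroxylase needs. Of its 7 genes tested 2 fell and none rose. Pts, the second enzyme of its synthesis, fell to 4.83 ± 2.26 CPM in inflamed regions, against 12.8 ± 1.34 CPM in uninflamed regions (log2 fold change -1.39 ± 0.24 SE, adjusted p = 0.00108). Spr, the reductase of the last step, fell to 7.60 ± 3.55 CPM in inflamed regions, against 16.3 ± 3.36 CPM in uninflamed regions (-1.10 ± 0.26, adjusted p = 0.00595). Gch1, the cytokine-inducible first enzyme, lay the other way at 0.75 (adjusted p = 0.0158), short of 2-fold. Among genes of serotonin storage, breakdown and melatonin synthesis, Aldh2, which oxidises the aldehyde that monoamine oxidases leave, was at -0.51 (adjusted p = 0.0680), and Aanat, the acetyltransferase that opens melatonin synthesis from serotonin, at 1.00 (adjusted p = 0.0763; 1.32 with adjusted p = 0.0479 without animal 222). Aanat gave a value in I-UI under 14 alternatives, where Aldh2 did under 16.

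Serotonin acts through a family of receptors. Of 14 receptor genes 9 could be tested, 1 of which rose and 1 fell. Htr7, a receptor coupled to cyclic AMP, rose to 36.2 ± 13.1 CPM in inflamed regions, against 17.0 ± 2.51 CPM in uninflamed regions and 20.1 ± 6.98 CPM in control colon (log2 fold change in I-UI 1.09 ± 0.23 SE, adjusted p = 0.00296). Htr4, the receptor through which serotonin promotes gut motility, fell to 32.3 ± 10.8 CPM in inflamed regions, against 68.8 ± 18.2 CPM in uninflamed regions and 92.7 ± 17.2 CPM in control colon (-1.09 ± 0.23 in I-UI, adjusted p = 0.00320). Both dropped below 2-fold without animal 222, Htr7 at 0.91 (adjusted p = 0.0189) and Htr4 at -0.94 (adjusted p = 0.0206). Htr2a was at 0.47 (adjusted p = 0.161). The smooth muscle markers, of which 5 of 7 fell (3 without control 216 or 217 or without any animal but 218, and 4 without 218), summed to 861.8 to 3776 CPM in inflamed, 3162 to 9704 CPM in uninflamed and 3927 to 4887 CPM in control libraries, and their part in the Htr4 value was not tested.

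Of 9 tryptophan transporter genes tested 2 rose and none fell. Slc7a5, the transporting subunit of the main exchanger for large neutral amino acids, rose to 38.2 ± 16.1 CPM in inflamed regions, against 11.6 ± 3.92 CPM in uninflamed regions and 6.67 ± 1.45 CPM in control colon (log2 fold change in I-UI 1.71 ± 0.29 SE, adjusted p = 0.000998). Tmem27, a partner of neutral amino acid transporters in kidney, rose to 6.53 ± 3.73 CPM in inflamed regions, against 2.41 ± 0.993 CPM in uninflamed regions (1.44 ± 0.37, adjusted p = 0.00982). Slc16a10, an aromatic amino acid transporter, was at 0.68 (adjusted p = 0.00606), short of 2-fold. Of 9 genes of the aryl hydrocarbon receptor, which kynurenine can bind, and of the kynurenate receptor Gpr35, 2 rose and none fell. Cyp1b1, a target of the aryl hydrocarbon receptor, rose to 3.03 ± 2.35 CPM in inflamed regions, against 0.227 ± 0.104 CPM in uninflamed regions (3.65 ± 0.64, adjusted p = 0.00110), from few reads in the uninflamed libraries. Nqo1, a quinone reductase, rose to 40.0 ± 23.3 CPM in inflamed regions, against 12.6 ± 3.34 CPM in uninflamed regions (1.66 ± 0.36, adjusted p = 0.00425). Tiparp was at 0.65, short of 2-fold. With the animal as a block 6 of these 9 genes could be tested and 1 was called, Nqo1. Cyp1b1 did not pass the filter in that fit and was not tested with the block. In the main fit it passed the filter through its inflamed libraries, so the size of its fold change is uncertain. The other classical target, Cyp1a1, averaged 0.764 CPM in inflamed and 0.776 CPM in uninflamed regions.

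The interferon gamma list, followed because Ido1 is a known target of that cytokine, gave 3 calls among 14 genes. Jak2, a kinase of the receptor, rose (log2 fold change 1.05, adjusted p = 0.00135), as did Socs1, a feedback inhibitor (1.38, adjusted p = 0.0329), and the chemokine Cxcl11 fell by 1.98 (adjusted p = 0.00693). Each of the 3 calls was lost under an alternative. With the animal as a block Jak2 was at 0.998, just below 2-fold (adjusted p = 0.00502), and Socs1 had an adjusted p of 0.107 without animal 222. Socs1 did not pass the filter on low counts in the block fit, so the size of its fold change is uncertain. Without animal 223 Cxcl11 had an adjusted p of 0.0505 and the list had 0 calls. Irf1, a transcription factor of the response, was at -0.45 (adjusted p = 0.252) and Ifng itself at 0.65 (adjusted p = 0.349), with 0.749 CPM in inflamed and 0.501 CPM in uninflamed regions.

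**Figure D5:**
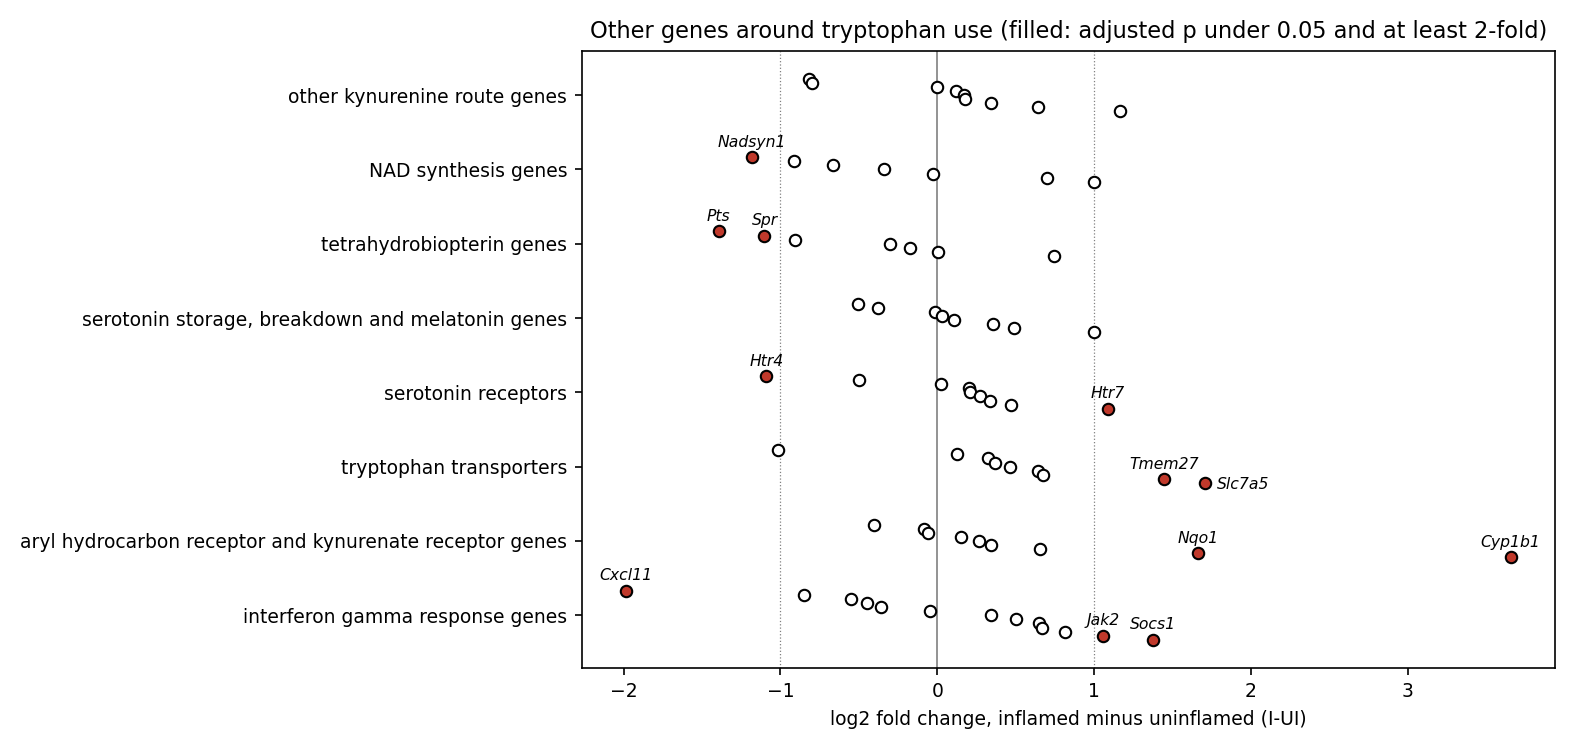
Log2 fold change in I-UI (x axis) of the tested genes reported here in the 8 lists around tryptophan use, 1 point a gene, filled and named where called. Tetrahydrobiopterin and NAD genes are filled on the left, transporters and aryl hydrocarbon receptor targets on the right, and no other kynurenine route gene is filled.

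In I-C, none of the 10 genes was called by edgeR, where 13.7% of all genes were (5.93% higher and 7.79% lower). Of the 10, 2 had an unadjusted p under 0.05 (29.7% of all genes), 1 passed the adjusted p alone (17% of all genes), and exactTest and DESeq2 called 0 and limma-voom 1. The gene past the adjusted p was Maoa, at 40.6 ± 10.6 CPM in inflamed regions (SD, n = 6) and 80.0 ± 3.26 CPM in control colon (n = 2). Its log2 fold change of -0.98 ± 0.25 (SE, adjusted p = 0.0152) lay just short of 2-fold. Every inflamed library was below both controls for Maoa and for Slc6a4, as was the case for 14.3% of all genes. Slc6a4 averaged 4.15 ± 1.03 CPM in inflamed regions and 7.66 ± 1.04 CPM in control colon (-0.88 ± 0.32, adjusted p = 0.0706). Leaving out single animals moved these 2 genes over the threshold: Maoa was called without animal 220 (-1.05), 221 (-1.03), 222 (-1.01) or 223 (-1.01), and Slc6a4 without animal 221 (-1.03), whereas without control 216 or 217 the adjusted p of Maoa was 0.0866 or 0.114.

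Tph1 averaged 3.70 ± 1.95 CPM in inflamed regions and 6.55 ± 2.57 CPM in control colon, a log2 fold change of -0.83 ± 0.45 (SE, adjusted p = 0.238). The widest intervals in I-C were those of Ido1, Kmo and Tdo2. Ido1 was at 1.54 (95% confidence interval -0.52 to 3.61, adjusted p = 0.312) and Kmo at 1.17 (-0.11 to 2.45, adjusted p = 0.211), and without animal 218 they were at 0.83 and 0.55. The remaining genes lay between -0.20 (Haao) and 0.52 (Kynu). In the lists around the route, 1 gene each was called in I-C for tetrahydrobiopterin (Gchfr, the feedback protein of Gch1, -1.95), serotonin removal (Slc29a4, a monoamine transporter, 1.80), receptors (Htr4, -1.52), transporters (Slc7a5, 2.51) and aryl hydrocarbon receptor targets (Cyp1b1, 3.12, adjusted p = 0.0398). The call was lost without control 216 for Htr4 (adjusted p = 0.0623), without control 217 for Slc7a5 (adjusted p = 0.0622), for Slc29a4 without control 216 (adjusted p = 0.165), control 217 (adjusted p = 0.193) or animal 223 (adjusted p = 0.0605) and with limma-voom (adjusted p = 0.0715), and for Cyp1b1 without either control or without animal 219, 220, 222 or 223 (adjusted p from 0.0561 to 0.251). Cyp1b1 also lost its call with limma-voom (adjusted p = 0.232) and in an edgeR fit of only the 2 groups compared (adjusted p = 0.125). Gchfr and Slc29a4 were named because they are the only calls of their lists in I-C.

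In UI-C, none of the 10 genes was called by edgeR, exactTest, DESeq2 or limma-voom and none had an unadjusted p under 0.05. Of all genes 0.145% were called (0% as higher), 0.15% passed the adjusted p alone and 8.89% had an unadjusted p under 0.05. The largest differences were those of Ido1 (1.46, 95% confidence interval -0.61 to 3.53) and Tph1 (0.81, -0.20 to 1.83, adjusted p = 0.670), with Tph1 at 11.5 ± 3.88 CPM in uninflamed regions and 6.55 ± 2.57 CPM in control colon. Maoa was at 63.4 ± 10.7 CPM in uninflamed regions and 80.0 ± 3.26 CPM in control colon (-0.34, adjusted p = 0.774), and Slc6a4 at 7.96 ± 2.54 CPM in uninflamed regions and 7.66 ± 1.04 CPM in control colon (0.06, adjusted p = 0.982). With 2 controls the intervals are wide, and no gene of the 8 lists was called in this comparison by edgeR, exactTest, DESeq2 or limma-voom, with at most 1 gene a list at an unadjusted p under 0.05.

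Scaling bears on the size of all these values. On library totals in place of TMM factors, an alternative chosen after seeing the data, the median log2 fold change of all genes was higher by 0.24 in I-UI, 0.62 in I-C and 0.38 in UI-C. Tph1 was still called in I-UI (-1.42, adjusted p = 0.0154), but Slc6a4 (-0.69, adjusted p = 0.0821) and Maoa (-0.36, adjusted p = 0.289) no longer passed the adjusted p, and Kmo was called (1.11, adjusted p = 0.0284). Of the named genes around the route, Nadsyn1 (-0.96, adjusted p = 0.0270), Spr (-0.88, adjusted p = 0.0333) and Htr4 (-0.85, adjusted p = 0.0510) lost their calls in I-UI on totals, and Aanat (1.27, adjusted p = 0.0496) gained one. The NAD synthesis list still had 1 call there, of a gene not named here. Epithelial marker calls numbered 6 of 12 and smooth muscle ones 2 of 7. In I-C on totals, Kynu (1.13, adjusted p = 0.0254) and Kmo (1.77, adjusted p = 0.0281) were called and Maoa was at -0.32 (adjusted p = 0.454). In the lists around the route, I-C on totals gave 7 calls in place of 1 among tryptophan transporters, 5 in place of 0 among interferon gamma response genes, 3 in place of 0 for NAD synthesis, 1 in place of 0 for the other kynurenine route genes, and 2 in place of 1 both for serotonin storage, breakdown and melatonin synthesis and for the aryl hydrocarbon receptor list, while among receptors Htr4 was lost (-0.90, adjusted p = 0.101) and Htr7 was called (1.53, adjusted p = 0.0150). These values include the shift of all genes, and none of the 10 genes' fold changes that had passed the adjusted p changed sign.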

How the data were processed

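The values are whole read counts per gene, deposited by the authors without normalization. Per the study's methods, SOLiD 5500xl reads of 50 bases were mapped in CLC Genomics Workbench 7.5.1 against Rnor_5.0 and the genes of Ensembl release 77, with up to 10 places for reads that match more than 1, and reads on ribosomal RNA genes were removed. Maoa and Maob are related genes, and shared reads could have been split between them. The sources used here do not state whether counting used the strand.

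The counts were fitted in edgeR 4.0.16 (R 4.3.3), with its robust quasi-likelihood model, TMM factors and filterByExpr at a minimum count of 10, all 14 libraries in 1 fit with 3 groups. The filter kept 18678 genes, over which p-values were adjusted by Benjamini-Hochberg. Log2 CPM used a prior count of 2. The authors' own test, exactTest, was an alternative, as were DESeq2 1.42.0 and limma-voom (limma 3.58.1). The fit was tested on simulated data. A true 2-fold change was called in 25.5% of cases in I-UI, 18.6% in I-C and 8% in UI-C, and a true 4-fold change in 92%, 72.9% and 66.1%. A gene not called can therefore still have changed by 2-fold.

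Members and lists were chosen with earlier results of these data known. Named by rule were all 10 members, in each other list the 3 genes of lowest adjusted p in I-UI, the ratio markers, and the 3 genes most like each member called. Of the 184 symbols listed, 4 were found under a synonym and 4 had no match. Cyp1a1, Irf1, Ifng, Gchfr and Slc29a4 were added after their values were seen. A few genes of the lists are not reported here. Both regions of a rat are paired by the animal number in the labels. The correlation of their deviations from the group means was -0.12 to 0.18.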

Additional observations from a re-analysis of the deposited data

Results flagged for a closer look

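Dixon's test for a value that lies apart in a small group was run on log2 CPM in the 20 groups of 6 libraries, where chance gives about 1. It marked 3. Ido1 in the inflamed region of animal 218 stood apart from the other inflamed regions with a gap of 0.681 of the group's range (5.61 CPM, the next highest 1.44). Kynu in the same library had a gap of 0.667 (40.8 CPM, the next highest 22.5). Kmo in the uninflamed region of animal 218 had a gap of 0.659 (7.01 CPM, the next highest 5.67). All 3 came from animal 218.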

How the results depend on the processing

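The 10 genes gave 460 log2 fold changes under alternatives, of which 449 kept their side of the threshold and 11 passed it anew. The sign changed in 32 of the 460 (2 of them in I-UI, Ido1 and Tdo2 without animal 218), in no case with an adjusted p under 0.17. In I-UI, 1 gene was called, 3 with no minimum fold, 2 on library totals without TMM (chosen after seeing the data), and 1 to 2 when each animal or control was left out. In I-C, 0 were called, 1 with no minimum fold, 1 with limma-voom, 2 on library totals, and 0 to 2 when each animal or control was left out. In UI-C none was called under any alternative run. With the animal as a replicate block, which pairs both regions of a rat, 1 of the 10 was called in I-UI (Tph1, -1.72, adjusted p = 0.00363). In that block fit the aryl hydrocarbon receptor list had 1 call in place of 2, with 6 of its 9 genes passing the filter and Cyp1b1 not among them. The interferon gamma list had 1 call in place of 3. There Jak2 fell just below 2-fold, and Socs1 did not pass the filter and was not tested. No other of the 8 lists changed its count by over 1.5 times under the block. The log2 ratios to markers stayed within 1 SD under a prior count of 0.5 or 5 and without each animal. Ido1 and Haao, at 4 to 53 and 6 to 24 reads, limit what can be seen of them, and 2 controls limit I-C and UI-C. The causes of these dependences were not tested.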
